A study of Mus musculus with 2 samples.

Results

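Distal convoluted tubule (DCT) cells, the cells of the short nephron segment between the thick ascending limb (TAL) and the connecting tubule, were picked out of a single-cell RNA survey of the injured mouse kidney by their own transporter, and so were chosen by the levels of 5 genes. A cell barcode was kept when it held 2000 to 100000 unique molecular identifiers (UMIs, each standing for 1 captured RNA molecule), at least 200 genes, at most 50% of UMIs from mitochondrial genes, and a complexity of 0.8 or above, the log10 of its genes over the log10 of its UMIs. Of these barcodes, a DCT member had at least 5 UMIs of Slc12a3 and more of it than of Slc12a1, under 20 Aqp2 UMIs per 10000, under 3 UMIs of Atp6v1g3 and none of Ptprc. The members numbered 381 of 14910 kept barcodes, 192 in the Cre- library and 189 in the PHDTiEC library.

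DCT cells reclaim sodium chloride through the thiazide-sensitive cotransporter NCC, the product of Slc12a3, which the kinases WNK1 and WNK4 switch on through SPAK (Stk39) and which the ubiquitin ligase adaptor KLHL3 holds back by removing the WNK kinases. The early part of the segment takes up magnesium through TRPM6. The late part, which passes into the connecting tubule, also carries calcium: TRPV5 lets it in, the calbindins (S100g and Calb1) ferry it through the cell and NCX1 (Slc8a1) exports it, while Hsd11b2 guards the aldosterone receptor from glucocorticoid. DCT cells are crowded with mitochondria, which power this transport.

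The survey asked what loss of the oxygen-sensing prolyl hydroxylases PHD1, PHD2 and PHD3 from the endothelium, begun after injury, did to the cells of a healing kidney. PHDTiEC was a mouse with the Cdh5-CreERT2 transgene and the floxed alleles Phd1f/f, Phd2f/f and Phd3f/f, and the control a littermate that the labels give as Cre-, without naming its floxed alleles. Both were males of 8 to 10 weeks in which the artery of 1 kidney had been clamped for 25 minutes, followed by 4 tamoxifen injections of 3 mg every other day, and the injured kidney was taken on day 14. Each genotype was 1 mouse and 1 library, so genotype and mouse cannot be told apart, no p-value can be given, and the intervals cover counting error only.

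Cdh5 drives the Cre recombinase in endothelial cells, so the DCT was not the tissue targeted. In DCT members the floxed genes had log2 ratios, PHDTiEC over Cre-, of 0.17, 0.18 and 0.62, with 204 UMIs of Egln1 (PHD2) in Cre- and 244 in PHDTiEC, 220 and 265 of Egln2 (PHD1), and 19 and 31 of Egln3 (PHD3). In barcodes of an endothelial gate Egln1 was at 70.5 and 203 counts per 1000000 UMIs of the gate (CPM), Egln2 at 34.9 and 35.9 and Egln3 at 24.9 and 162. None was lower in the library labelled PHDTiEC, and counts of transcript 3′ ends do not show whether a floxed exon is gone, so they check nothing here and each library is named by its label throughout. The 2 libraries held 136004367 and 146758812 UMIs, 17 barcode sequences were kept in both, and no DCT member was shared.

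The members carried several of their segment's genes. Slc12a3 (chr8:94329201-94366214, GRCm38), which chose them, stood at 2381 CPM in Cre- and 1871 in PHDTiEC against 6.69 and 11.4 in the TAL gate and 53.2 and 55.2 in the immune gate. Of the markers the rule did not use, Abca13 was at 247 and 166 CPM, Sall3, a distal tubule transcription factor, at 58.7 and 68.0, and Ptgfr, a prostaglandin F receptor, at 98.9 and 146. Abca13, Sall3 and Ptgfr were at lower levels in each of the TAL, proximal tubule, intercalated, principal, endothelial and immune gates. Tfap2b, a transcription factor of the distal nephron, did not single out the members, at 218 and 304 CPM against 308 and 351 in the TAL gate. Pvalb, the parvalbumin of the early DCT, was nearly absent, with 6 UMIs in 3 barcodes of Cre- and 46 UMIs in 6 barcodes of PHDTiEC, of which 54.3% came from 1 barcode, so that no early DCT could be set apart by it.

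**Figure D1:**
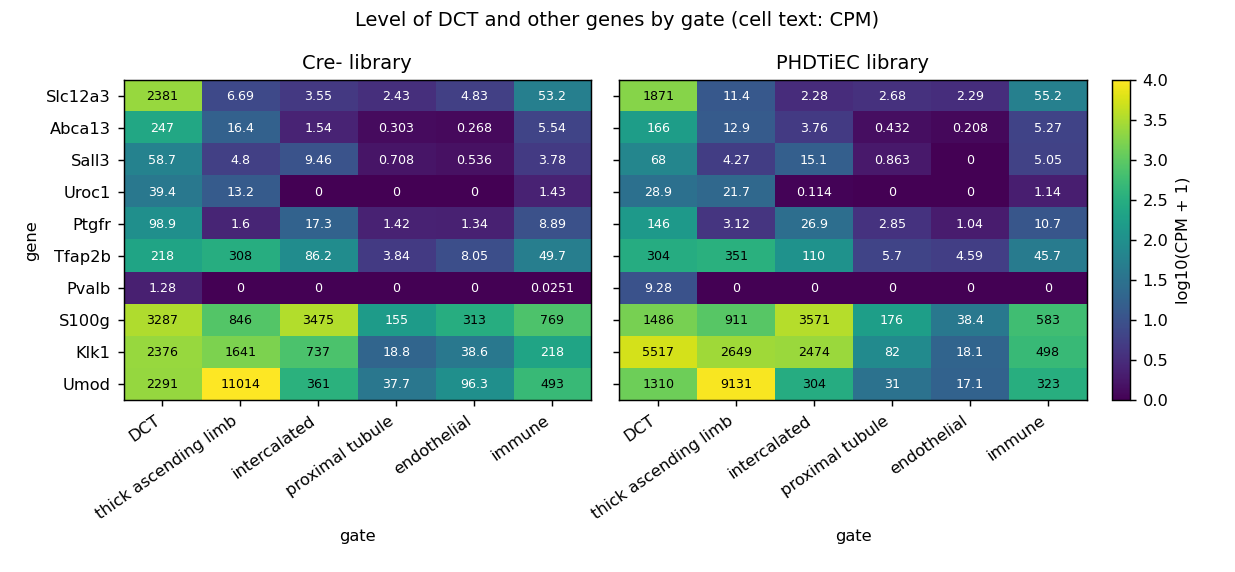
The plot shows the level, in counts per 1000000 UMIs of the gate, of each gene (vertical axis) in DCT members and in the other gates (horizontal axis), with 1 panel per library and the value printed in each cell on a log colour scale. Slc12a3, Abca13, Sall3 and Ptgfr are highest in the DCT column of both panels, while Tfap2b is as high or higher in the thick ascending limb.

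The genes most particular in level to the members were ranked by their ratio to the highest of the TAL, principal, proximal tubule and intercalated gates, a description of the same barcodes the rule chose. After Slc12a3 (356-fold in Cre- and 164-fold in PHDTiEC) came D430041D05Rik (18.8 and 24.1), Lpo, a peroxidase (29.8 and 18.8), Abca13 and Htr3a, a serotonin-gated ion channel (12.8 and 11.6 in PHDTiEC, and higher in Cre-). Ank2, Hmgcll1, Sall3, Slitrk4 and the kinase gene Wnk1 completed the 10, at ratios of 4.10 to 6.78. Of the 15 DCT markers listed, Slc12a3, Abca13, Sall3 and Wnk1 were among the 10. The others, Ptgfr, Uroc1, Tfap2b, Pvalb, Trpm6, Emx1, Cnnm2, Klhl3, Wnk4, Egf and Pgam2, were not. The principal gate held 10 and 13 barcodes, so its levels rest on few cells.

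Members made up 2.71% of kept barcodes in Cre- (exact 95% interval 2.34 to 3.11) and 2.42% in PHDTiEC (2.09 to 2.78), intervals that overlap. The Atp6v1g3 step removed 40 and 50 barcodes and the Ptprc step 71 and 83, so barcodes with UMIs of both Slc12a3 and Ptprc are not described. Slc12a3 ran from 5 to 405 UMIs per member in Cre- (median 39) and from 5 to 404 in PHDTiEC (median 27). At the edge, 6 and 8 members had 5 UMIs of it, and 4 and 5 barcodes missed membership with 4. Depth was close, with a median of 19202.5 UMIs and 4479 genes per member in Cre- and 19980 UMIs and 4863 genes in PHDTiEC.

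The libraries parted on mitochondrial RNA. Its share of a member's UMIs ran from 1.64% to 46.6% in Cre- (median 10.0%) and from 0.171% to 32.2% in PHDTiEC (median 5.93%). Under 6% lay 23 Cre- members (exact 95% interval 7.75 to 17.4%) and 97 PHDTiEC members (51.3%, 44.0 to 58.6). At 12% or more lay 80 Cre- members (41.7%, 34.6 to 49.0) and 31 PHDTiEC members (16.4%, 11.4 to 22.5), and the remaining 89 and 61 lay between. The TAL, intercalated and proximal tubule gates leaned the same way, with 33.3% and 12.7% of TAL barcodes, 29.5% and 6.87% of intercalated barcodes and 43.3% and 31.2% of proximal tubule barcodes at 12% or more. The small principal gate did not, with 3 of 10 and 5 of 13 barcodes there. Endothelial and immune barcodes had lower medians in PHDTiEC too, at 4.14% and 2.70% and at 3.45% and 2.49%. At 12% or more lay 1.56% and 2.37% of endothelial barcodes and 3.33% and 1.14% of immune barcodes. What sets a member's share was not tested. Gene lists and the main single genes below are therefore also given within the bands under 6%, 6 to 12% and 12% or more.

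Within either library, members also differed along this share. With mitochondrial genes left out of the totals, members at 12% or more had higher levels of many transport genes than members under 6%. Of the 8373 genes with at least 100 UMIs, mitochondrial, ribosomal protein and haemoglobin genes aside, that were found in both bands of both libraries, 538 (6.43%) were past 1.5-fold higher and 624 (7.45%) lower in both libraries, with medians of -0.02 and -0.06. Past 1.5-fold higher in both libraries were 9 of 14 DCT markers, 10 of 21 genes of NCC control and basolateral transport, 7 of 11 calcium genes, 6 of 10 late DCT genes and 3 of 9 magnesium genes, with none, 1, 1, none and 1 lower. S100g was higher by a log2 ratio of 3.36 in Cre- and 4.67 in PHDTiEC, Calb1 by 4.54 and 6.56, and Slc8a1 by 3.17 and 3.48. Kl, the Klotho coreceptor that sustains calcium reabsorption, was higher by 3.55 and 3.89. Slc12a3, which is among the DCT markers counted, was higher by 1.89 and 2.14. It chose the members by UMIs, and shallower members need a higher level of it to pass, so its value is description. Trpv6, a second calcium entry channel, was lower (-1.16 and -1.03), as was the aldosterone-induced kinase gene Sgk1 (-2.68 and -2.44), both on few UMIs. Klk1 and Hsd11b2 differed in direction, at 1.31 and 0.28 in Cre- and -1.13 and -1.30 in PHDTiEC. All 74 nuclear genes of the respiratory chain were higher in both libraries, 58 of them past 1.5-fold, with medians of 1.02 and 0.77.

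Stress and injury genes ran the other way along the same axis. Of 22 immediate early and heat shock genes 19 were lower past 1.5-fold in both libraries at 12% or more, with median log2 ratios of -1.55 and -1.44. Of 20 NF-kB response genes 16 were lower (medians -1.61 and -0.99), and of 21 tubular injury genes 11 (medians -2.02 and -0.91). Lcn2, the iron-carrier-binding lipocalin shed by injured tubules, stood at -2.48 and -2.40, Mmp7, a matrix protease, at -3.96 and -4.03, and Hk2, a hexokinase, at -3.29 and -3.35. In PHDTiEC members at 12% or more Mmp7 had 1 UMI and Hk2 had 4. Median depth was 31902 UMIs under 6% and 16963.5 at 12% or more in Cre-, and 25018 and 11877 in PHDTiEC, and the part of depth in these differences was not tested.

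**Figure D2:**
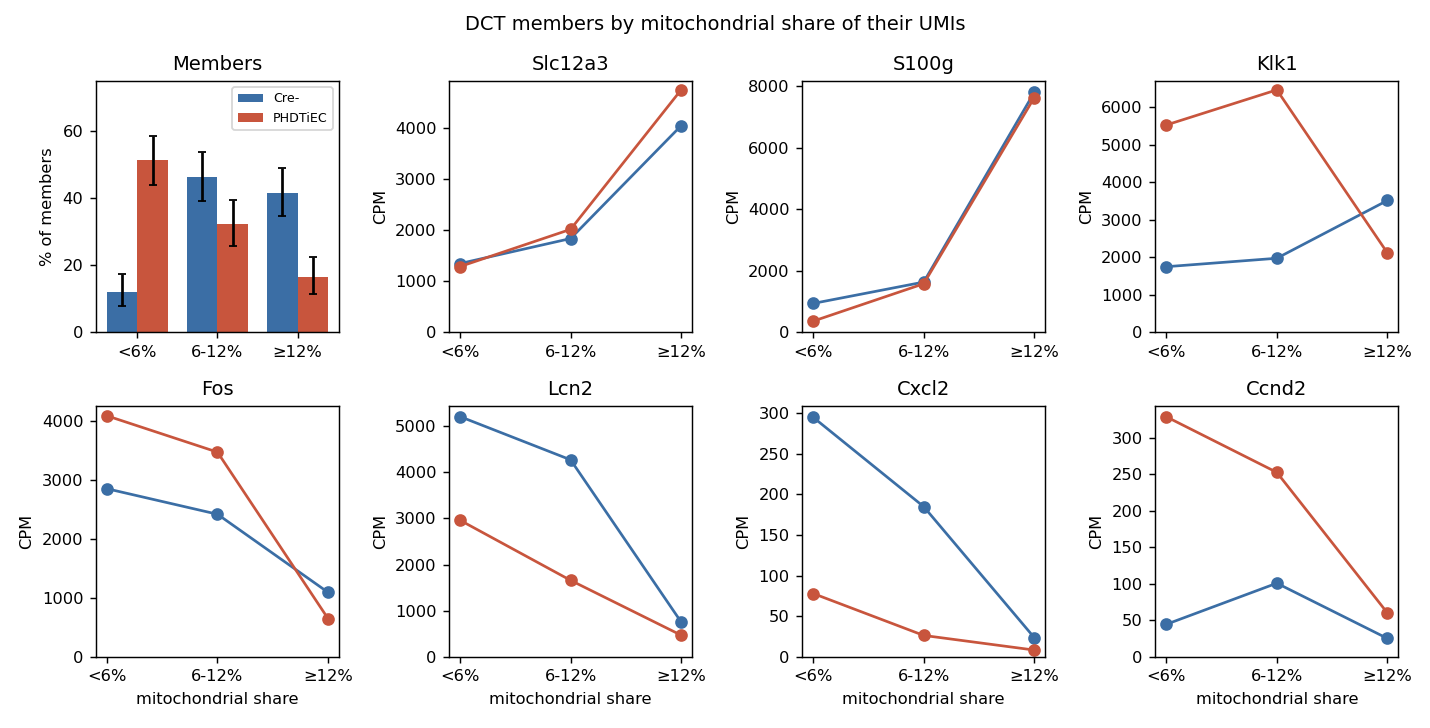
The first panel shows the percentage of members in each band of mitochondrial share (horizontal axis) with exact 95% binomial bars, and the other panels the level in CPM of single genes in the same bands, with Cre- and PHDTiEC side by side. Cre- members lie mostly at 6% or more and 51.3% of PHDTiEC members under 6%, and Slc12a3 and S100g are highest at 12% or more in both libraries.

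A calcium-handling range stood out inside the class. S100g, calbindin-D9k (chrX:162961992-162964599, minus strand), ran per member from 0 to 770 UMIs per 10000 in Cre- (median 1.06) and from 0 to 378 in PHDTiEC (median 0.62), and 55 and 57 members had none. At 10 or more per 10000 were 56 Cre- members (29.2%, 22.8 to 36.1) and 34 PHDTiEC members (18.0%, 12.8 to 24.2). The limit cuts a range and not a type: 10 and 6 members lay at 5 to 10 per 10000, and 12 and 11 at 10 to 20.

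Members inside that range had higher levels of several other calcium genes, though not of all. Calb1, calbindin-D28k, was at 1469 CPM inside and 27.9 below the range in Cre-, and at 1009 and 32.7 in PHDTiEC. Slc8a1 was at 1111 and 89.9 CPM in Cre- and 919 and 125 in PHDTiEC, Trpv5 at 155 and 30.4 against 191 and 37.8, and Kl at 573 and 76.1 against 397 and 65.3. Scnn1b, a subunit of the epithelial sodium channel, was at 201 and 63.8 CPM in Cre- and 213 and 72.5 in PHDTiEC. Trpv6 was at 16.3 inside and 27.6 CPM below in Cre- and 23.2 and 21.9 in PHDTiEC. Casr, the calcium-sensing receptor, was at 18.5 and 25.1 against 17.4 and 31.1, and Atp2b1, a calcium pump, at 153 and 175 against 198 and 175. Slc12a3 was higher there too, at 3264 and 1999 CPM in Cre- and 2748 and 1639 in PHDTiEC. The median mitochondrial share was 12.8% inside and 9.39% below in Cre-, and 8.32% and 5.58% in PHDTiEC.

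Between the libraries, 8524 genes had at least 100 UMIs over both, and 420 were at least 1.5-fold higher in PHDTiEC (4.93%) and 115 at least 1.5-fold lower (1.35%). The median log2 ratio of all genes with 10 UMIs or more was 0.12, where mitochondrial genes took 11.7% of UMIs in Cre- and 6.92% in PHDTiEC. Scaling by trimmed mean of M values (TMM), which removes that shift, gave 238 higher and 199 lower. Values below are log2 ratios of CPM, PHDTiEC over Cre-, and are to be read against 0.12. In all, 5784 of the 8524 genes were higher and 2740 lower. Counts of higher genes in a list are to be read against this split. Within bands (under 6%, 6 to 12%, 12% or more) 6560 of 11533, 6417 of 11588 and 5248 of 9595 genes measured were higher. Of the genes past the fold, 40 of the higher and 17 of the lower drew over 20% of their UMIs from 1 barcode. Among the 13040 genes with at least 10 UMIs, on which the gene lists were counted, 12.2% were past 1.5-fold higher and 5.94% lower.

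The calbindins and several other calcium genes were lower in PHDTiEC over all members, though not in each band of mitochondrial share. Of 12 measured, 7 were lower and 5 higher, with 4 past 1.5-fold lower and 1 past it higher, with a median of -0.23. S100g had 15352 UMIs (3287 CPM) in Cre- and 7362 (1486 CPM) in PHDTiEC, a log2 difference of -1.15 (-1.19 to -1.11). Calb1 stood at 463 and 237 CPM, or -0.97 (-1.07 to -0.86), with 22.3% of its Cre- UMIs in 1 barcode. Kl was at -0.75, Pth1r, the parathyroid hormone receptor, at -0.60 (415 and 274 CPM), and Slc8a1 at -0.45 (0.24, 0.04 and 0.60 within bands). Trpv5, the entry channel, was at 0.04 (-0.18 to 0.27), and at -0.25, 0.52 and 0.53 within bands. Cyp24a1, which degrades active vitamin D, had 1 and 19 UMIs, 73.7% of the latter in 1 barcode.

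The difference was uneven across bands of mitochondrial share. Within bands of mitochondrial share S100g stood at -1.38, -0.05 and -0.03 (under 6%, 6 to 12%, 12% or more), and Calb1 at -1.60, 0.34 and 0.46. The values under 6% rested on 23 Cre- and 97 PHDTiEC members, with 799 and 989 UMIs of S100g. Calb1 had only 64 and 68 UMIs there. Kl stood at -0.30, 0.65 and 0.09. Pth1r stayed lower in each band, at -0.44, -0.66 and -0.32. The calcium list's medians were -0.24, 0.04 and 0.09, against 0.08, 0.05 and 0.06 over all genes. Between members inside the S100g range, S100g differed by -0.66, and between those below it by -0.05. The range was cut on S100g itself, so these values do not show where the difference lies. Of immune barcodes, 34.3% in Cre- and 24.3% in PHDTiEC held an S100g UMI at median depths of 7661 and 7996.5 UMIs, against 71.4% and 69.8% of members at 19202.5 and 19980, so low counts of S100g in a member can be free RNA.

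Klk1 and Hsd11b2 were higher in PHDTiEC in members below 12% mitochondrial share. They are the 2 genes past 1.5-fold higher of the late DCT and connecting tubule list, whose 11 measured genes were 6 higher and 5 lower, 2 of them past 1.5-fold lower, with a median of 0.04 over all members and of -0.06, 0.34 and 0.11 within bands. Klk1 (chr7:44225360-44229618), tissue kallikrein, ran per member from 0 to 222 UMIs per 10000 in Cre- (median 4.75) and from 0 to 393 in PHDTiEC (median 36.4). Its sums were 11095 and 27343 UMIs, 2376 and 5517 CPM, or 1.22 (1.18 to 1.25). The ranges overlapped, but 108 of 192 and 156 of 189 members kept a Klk1 UMI when each was thinned to 2000 UMIs (56.2% and 82.5%). By band Klk1 was 1.66 and 1.71 under 12% and -0.73 at 12% or more, where it stood at 3512 and 2117 CPM. Hsd11b2 was at 581 and 1031 CPM, 0.83 (0.76 to 0.90), and by band at 1.37, 0.66 and -0.15. Klk1 was also higher in PHDTiEC in the TAL (0.69), intercalated (1.75), proximal tubule (2.12) and immune (1.19) gates, and its level in the immune gate was 218 and 498 CPM, with a UMI in 13.6% and 22.2% of immune barcodes. An alternative subtracted an estimated free RNA profile, but the part of free RNA in Klk1 was not measured. Reads of Klk1 may be split with its close kallikrein relatives.

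**Figure D3:**
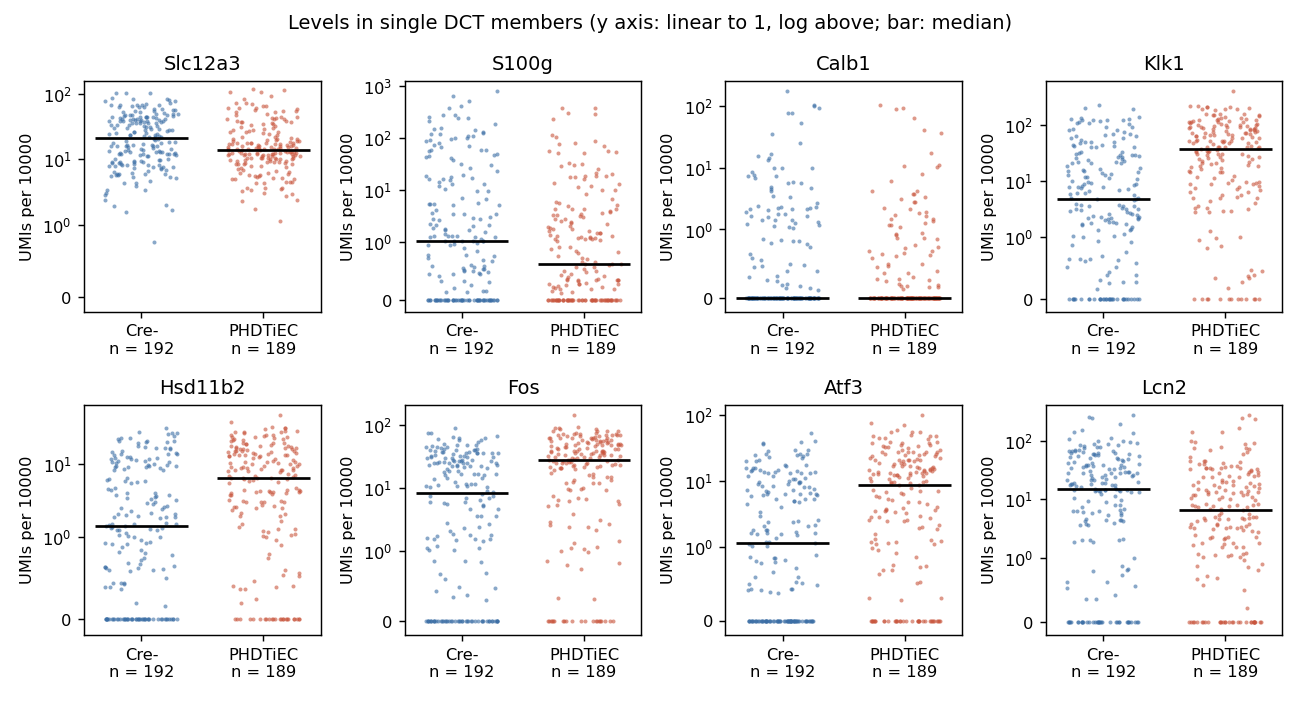
Each point is 1 DCT member, with its UMIs of the gene per 10000 UMIs of the barcode on the vertical axis (linear to 1, log above), 192 Cre- and 189 PHDTiEC members per panel, and a bar at the median. All panels overlap between libraries, with the Klk1 median at 4.75 in Cre- and 36.4 in PHDTiEC and the Slc12a3 median at 21.2 and 14.1.

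The NCC machinery sat close to the median of all genes over all members and above it within bands. Its 21 control and basolateral transport genes had a median of 0.11, and none passed 1.5-fold in either direction. Within bands the list's medians were 0.48, 0.27 and 0.13, with 16 of 21, 17 of 21 and 14 of 20 genes higher. Wnk1 was at -0.12 (780 and 719 CPM) over all members and at 0.82, 0.49 and 0.47 within bands. Wnk4 was at 0.13 (0.48, 0.22 and 0.23) and Stk39 at -0.01 (0.19, 0.03 and -0.27). Klhl3 had the largest ratio among these kinase-pathway genes, 0.53 (0.37 to 0.69; 113 and 163 CPM), and was higher in each band (1.31, 0.62 and 0.74). The potassium channel genes Kcnj10 and Kcnj16 were at -0.15 (0.01, 0.16 and -0.31 within bands) and 0.41 (0.53, 0.60 and 0.32).

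Slc12a3 itself was at -0.35 over all members and -0.06, 0.14 and 0.23 within bands, given as description since it chose the members. The 15 DCT markers had a median of -0.10 over all members and 0.38, 0.49 and 0.41 within bands. The markers' median was thus lower in PHDTiEC over all members and higher within each band, while Slc12a3 was higher in 2 of the 3 bands. Of 11 magnesium genes, 8 were higher, 3 lower and 1 past 1.5-fold, with a median of 0.12 (0.21, 0.22 and 0.33 within bands). Trpm6 was at -0.10 (55.5 and 51.9 CPM) and Cnnm2, a basolateral magnesium transporter, at -0.12. Distal transcription factors gave 14 higher and 5 lower of 19, none past 1.5-fold, with a median of 0.16 (0.19, 0.24 and 0.15 within bands), Tfcp2l1 at 0.55 (418 and 613 CPM; 0.65, 0.59 and 0.46 within bands) and Mecom at 0.42 (0.53, 0.49 and 0.57).

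Respiratory chain genes were lower in PHDTiEC. All 13 mitochondrially encoded genes were lower and 8 passed 1.5-fold, with a median of -0.77; mt-Co1 was at -0.77 and mt-Atp6 at -0.95. Of 74 nuclear respiratory genes 72 were lower, none past 1.5-fold, with a median of -0.19. The bands were set on these mitochondrial genes, and inside them the encoded genes gave 0.08, -0.07 and -0.15 and the nuclear genes -0.01, 0.05 and -0.23. In the TAL, intercalated, principal, proximal tubule, endothelial and immune gates the encoded medians were -0.53, -0.57, -0.20, -0.15, -0.48 and -0.46. The nuclear medians there were -0.16, -0.23, -0.12, -0.04, -0.19 and -0.13. Glycolysis genes divided evenly, 8 higher and 9 lower of 17, with a median of -0.01 (-0.09, 0.07 and -0.18 within bands).

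HIF targets outside glycolysis had a median of 0.20, with 19 of 22 higher, 4 past 1.5-fold higher and 1 past it lower. Within bands the medians were 0.28, 0.16 and -0.08. Cited2, a HIF-induced transcription cofactor, was at 0.67 (214 and 340 CPM) and at 0.66, 0.40 and 0.40 within bands. Slc16a3, the lactate exporter MCT4, had 3 and 13 UMIs in all members. In the endothelial gate the HIF list had a median of 1.20 and glycolysis 1.09. The TAL gate was close to the members on the HIF list, with a median of 0.17 and 20 of 24 higher. Its medians were 0.08 in the intercalated, 0.09 in the proximal tubule, 0.01 in the principal and 0.02 in the immune gate.

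Immediate early genes, which cells switch on within minutes of stimulation or stress, were higher in PHDTiEC. Of 23 with heat shock genes, 21 were higher, 10 of them past 1.5-fold, and 1 was past it lower, with a median of 0.48. Fos (chr12:85473890-85477273) ran at a median of 8.22 UMIs per 10000 per member in Cre- and 27.3 in PHDTiEC, and its sums stood at 2113 and 3538 CPM, 0.74 (0.71 to 0.78). Atf3, a stress-induced repressor, was at 817 and 1474 CPM (0.85), Klf2 at 1.08, Klf4 at 1.03, Dusp1 at 0.83, Jun at 0.61 and Myc at 1.16. Fosl1, the member past the fold lower, had 28 and 11 UMIs (-1.43). Fos RNA was found in 87.4% and 86.8% of immune barcodes.

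Band by band the list's medians were smaller, 0.22, 0.23 and 0.15. Fos stood at 0.52, 0.52 and -0.75 and Jun at 0.54, 0.35 and -0.53, so both were lower in PHDTiEC among members at 12% or more. Atf3 (0.47, 0.25 and 0.51), Klf2 (0.71, 0.59 and 0.34), Klf4 (0.65, 0.37 and 1.15) and Myc (0.96, 0.52 and 1.90) were higher in each band. The Myc value at 12% or more rested on 6 and 8 UMIs. The same list had medians of 0.25 in the TAL, 0.15 in the intercalated, 0.00 in the proximal tubule, -0.07 in the endothelial and 0.04 in the immune gate.

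The promoters of Fos and Atf3 are printed because both were higher in PHDTiEC over all members, and those of Cxcl2 and Cxcl1 because chemokines of the NF-kB list went the other way. Each run is the 250 bases before the RefSeq gene start (GRCm38.p6), 5′ to 3′ on the gene's strand, at chr12:85473640-85473889 (plus) for Fos, chr1:191183334-191183583 (minus) for Atf3, chr5:90903649-90903898 (plus) for Cxcl2 and chr5:90890995-90891244 (plus) for Cxcl1. Capitals mark TGACGT, the core of the cAMP and ATF element, in the first pair and the NF-kB motif (GGG, any 2 bases, TTTCC) in the second pair, on either strand.
Fos: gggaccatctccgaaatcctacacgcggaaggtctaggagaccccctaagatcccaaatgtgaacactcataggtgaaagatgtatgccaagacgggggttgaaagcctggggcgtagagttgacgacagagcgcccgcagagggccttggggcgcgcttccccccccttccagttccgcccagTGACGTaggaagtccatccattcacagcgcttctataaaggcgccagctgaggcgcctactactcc
Atf3: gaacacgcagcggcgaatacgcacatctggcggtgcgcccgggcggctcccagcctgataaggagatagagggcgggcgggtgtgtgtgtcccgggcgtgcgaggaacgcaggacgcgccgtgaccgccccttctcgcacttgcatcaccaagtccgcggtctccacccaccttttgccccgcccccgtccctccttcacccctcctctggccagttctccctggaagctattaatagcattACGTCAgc
Cxcl2: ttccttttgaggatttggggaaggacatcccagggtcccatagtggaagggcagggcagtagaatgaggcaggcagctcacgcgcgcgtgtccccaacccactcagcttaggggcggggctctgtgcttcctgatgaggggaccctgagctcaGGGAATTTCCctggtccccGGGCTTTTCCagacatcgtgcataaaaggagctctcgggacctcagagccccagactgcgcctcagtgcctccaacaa
Cxcl1: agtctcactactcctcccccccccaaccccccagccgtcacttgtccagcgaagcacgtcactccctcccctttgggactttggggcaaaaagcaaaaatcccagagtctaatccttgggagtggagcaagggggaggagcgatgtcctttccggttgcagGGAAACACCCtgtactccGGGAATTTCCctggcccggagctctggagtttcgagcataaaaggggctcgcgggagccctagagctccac
TGACGT or its complement lay in these 250 bases of 4 of the 18 list genes matched, Fos, Atf3, Dusp1 and Btg2 (22.2%), and of 7.29% of all 27025 genes with a RefSeq promoter. The NF-kB motif lay in 8 of 18 matched NF-kB genes (44.4%: Nfkbia, Tnfaip3, Ccl20, Cxcl1, Cxcl2, Nfkb2, Il6 and Csf1) and in 1.65% of all genes. A match is a description of letters and not a bound site.

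The NF-kB response genes were mixed, with chemokines lower in PHDTiEC. Of 24 genes, 9 were higher and 15 lower, 2 past 1.5-fold higher and 6 lower, with a median of -0.06. Cxcl2, a neutrophil-drawing chemokine whose upstream run holds 2 copies of the motif, had 739 UMIs in 63 Cre- members and 264 in 54 PHDTiEC members, a log2 ratio of -1.57 (-1.78 to -1.37), and was lower in each band (-1.92, -2.81 and -1.51). Ccl20 had 156 UMIs in 18 members and 23 in 7 (-2.85), with 28.9% of the former in 1 barcode. Tnf had 63 and 23 UMIs (-1.54), Tnfaip2 was at -0.92 (-0.79, -1.24 and -0.18 within bands) and Cxcl1 at -0.63, though Cxcl1 was at 0.66 among members at 12% or more.

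Other NF-kB genes were higher. Ier3, an early survival gene, was at 478 and 776 CPM (0.70), and at 0.43, 0.32 and 0.92 within bands. Il6 had no UMI in Cre- and 18 in PHDTiEC, at least 5.65-fold higher against a floor of 3 UMIs over the Cre- class, with 33.3% in 1 barcode. Ccl2 was at -1.55 but at 0.00 without the top barcode of each library. Within bands the list's medians were -0.46, -0.63 and -0.06.

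**Figure D4:**
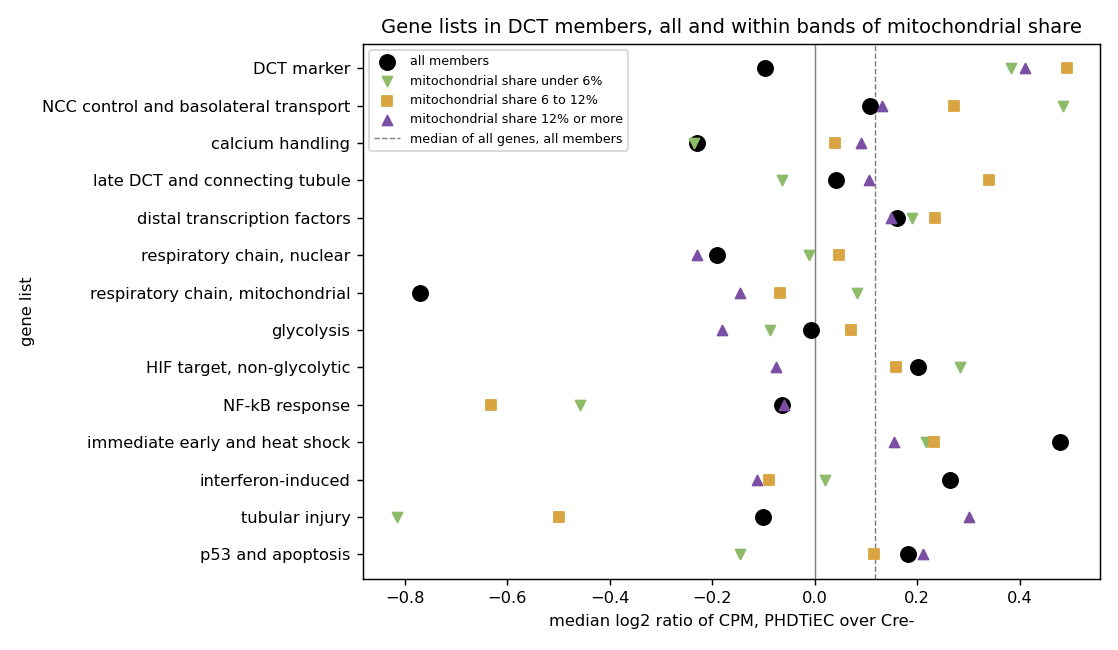
The plot gives the median log2 ratio of CPM, PHDTiEC over Cre- (horizontal axis), of each gene list (vertical axis) over all DCT members and within each of the 3 bands of mitochondrial share. The immediate early list lies at 0.48 over all members and at 0.15 to 0.23 within bands, and the calcium list moves from -0.23 to 0.09 in the highest band.

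Injury genes abundant in both libraries were lower in PHDTiEC. Lcn2 (chr2:32384633-32388252) had a median of 14.8 UMIs per 10000 per member in Cre- and 6.61 in PHDTiEC, stood at 3425 and 2268 CPM (-0.59, -0.63 to -0.56), and was lower in each band (-0.81, -1.37 and -0.69). Spp1, osteopontin, was at -0.64, and at -0.96, -0.69 and -0.66 within bands. Clu, the chaperone clusterin, was at -0.42, and at -0.62, -0.78 and 0.11. Mmp7 had 385 UMIs in 25 members and 123 in 8 (-1.73), with 34.3% of the Cre- UMIs in 1 barcode. Within bands Mmp7 was at -2.07, -3.98 and -2.10, the last on 12 and 1 UMIs. Havcr1 (KIM-1), a proximal tubule injury gene, had 35 and 93 UMIs, 29.0% of the latter in 1 barcode, and Vcam1 was at 0.91. Of the 22 injury genes 9 were higher and 13 lower, with a median of -0.10. The list parted by band, with medians of -0.82 and -0.50 and 17 of 22 genes lower in each of the bands under 12%, and a median of 0.30 with 13 of 18 genes higher at 12% or more. Lcn2 UMIs lay in 29.4% and 24.2% of immune barcodes, against 81.2% and 83.6% of members.

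Growth-arrest genes lay near the median of all genes, and interferon genes above it over all members. The p53 and apoptosis list had 13 of 22 higher and a median of 0.18 (-0.15, 0.12 and 0.21 within bands), led among the larger counts by Cdkn1a (p21), at 155 and 268 CPM (0.79), and at 0.22, 0.28 and 1.60 within bands. The interferon-induced list had 23 of 31 higher, 9 past 1.5-fold, and a median of 0.26 that became 0.02, -0.09 and -0.11 within bands. Several of its values rested on 1 barcode: Cxcl9 drew 97.3% of its UMIs from 1, Gbp2 39.0% and Isg15 32.6%. Of 14 cell cycle genes 12 were lower, 8 past 1.5-fold, at low counts (1519 and 1337 UMIs in all), with a median of -0.67. The interval lay below 0 for 4 of them. Within bands the medians were -1.93 (14 measured, 2 higher), -0.17 (7 measured, 3 higher) and -0.43 (8 measured, 2 higher).

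By the ranking over all genes, the highest in PHDTiEC were Grem1 (2.48), Spink1 (2.33), Slc13a1 (2.03), Ccnd2 (2.01), Sparc (2.00), Cyp2j5 (1.84), Sult1d1 (1.58), Ltbp4 (1.51), Folr1 (1.48) and Gm34455 (1.46). Some rested on few members: Slc13a1 on 14 in each library, Cyp2j5 on 11 and 19, and Folr1 on 13 and 23. Members also held proximal tubule marker UMIs, 790 in Cre- and 1831 in PHDTiEC. Per member these ran from 0 to 190 per 10000 UMIs in Cre- and from 0 to 156 in PHDTiEC. Whether Spink1, Slc13a1, Cyp2j5, Sult1d1 and Folr1 came with proximal tubule RNA was not tested. Their ratios are therefore not shown to be a change in DCT cells. Ccnd2, cyclin D2, had the broadest base, with 320 UMIs in 64 members of Cre- and 1368 in 116 of PHDTiEC. It was higher in each band (2.89, 1.33 and 1.26), and thinned to 2000 UMIs it was found in 8.85% and 30.7% of members. It was found in 40.6% and 44.3% of immune barcodes, and was higher in PHDTiEC in the TAL (1.07) and intercalated (1.26) gates also. Spink1, a trypsin inhibitor, had 76 UMIs in 23 members and 406 in 46, and was higher in each band (3.26, 3.41 and 2.22).

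Sparc, a matrix-binding glycoprotein, was at 31.5 and 126 CPM in members and 1815 and 2464 CPM in the endothelial gate. Grem1, a secreted BMP antagonist, was at 3.21 and 18.0 CPM in members and at no more than 5.01 CPM in any other gate. Its 15 and 89 UMIs were divided as 0 and 51 under 6%, 7 and 38 at 6 to 12%, and 8 and 0 at 12% or more. Members held 79 endothelial marker UMIs in Cre- and 322 in PHDTiEC (15 and 31 barcodes, from 0 to 10.7 and 0 to 18.9 per 10000), 35 and 186 fibroblast UMIs (28 and 26 barcodes), and 790 and 1831 proximal tubule UMIs, with Pdgfra at 0 in both. All 6 endothelial markers and the 3 fibroblast markers with 10 UMIs were past 1.5-fold higher in PHDTiEC. In PHDTiEC, though, 84 fibroblast UMIs (45.2%) lay in 1 barcode and 75 endothelial UMIs (23.3%) in 1 barcode. In Cre-, 36 endothelial UMIs (45.6%) lay in 1 barcode. In the 147 and 130 members without endothelial, fibroblast or haemoglobin UMIs, Sparc was at 0.99 and Grem1 at 1.72, while Ccnd2 (2.06), Spink1 (2.12), Klk1 (1.13), S100g (-1.17) and Fos (0.68) were near their values over all members. Macrophage marker UMIs numbered 1384 and 2313, and haemoglobin UMIs 7 and 285, 271 of them in 1 barcode. The 147 and 130 members above could still hold proximal tubule and macrophage UMIs. For the other genes the part of these RNAs was not tested.

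The lowest in PHDTiEC were Gpx6 (-1.84), Cxcl2 (-1.57), Serpina3n (-1.44), Rab27a (-1.24), Serpina3g (-1.21), Cxcl17 (-1.21), Aldoc (-1.20), Lars2 (-1.18), Gm42418 (-1.18) and Atp6v0d2 (-1.15). Gpx6, a glutathione peroxidase, had 81 UMIs in 26 members and 24 in 13. Its log2 ratios between members at 12% or more and under 6% were 5.91 and 6.86, on 1 UMI under 6% in each library. Gm42418, an annotated gene that overlaps ribosomal RNA sequence, was lower in each band (-0.33, -0.71 and -0.81) and in each of the other gates (-0.42 to -1.03). The Serpina3 genes are close paralogs whose reads can be split or shared. Umod, the TAL's own secreted protein, was at 2291 and 1310 CPM in members (-0.81) and in 31.9% and 21.2% of immune barcodes, where it stood at 493 and 323 CPM. Over the alternatives, which included subtracting an estimated free RNA profile, Umod stood at -1.21 to -0.22. The part of free RNA in this difference was not measured.

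**Figure D5:**
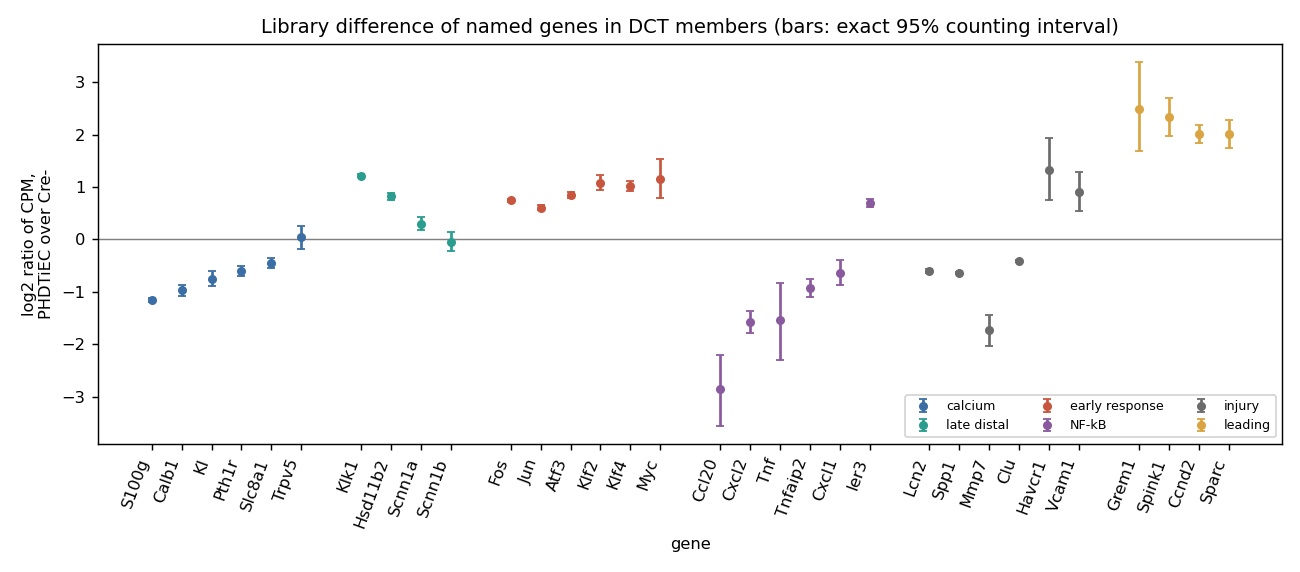
The plot gives the log2 ratio of CPM, PHDTiEC over Cre- (vertical axis), of named genes (horizontal axis) summed over all DCT members, with exact 95% counting intervals. S100g, Calb1, Cxcl2 and Lcn2 lie below 0 and Klk1, Hsd11b2, Fos, Klf4 and Ccnd2 above it, with intervals that do not reach 0.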

How the data were processed

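Single-cell RNA of the injured kidney was read from 1 Cre- and 1 PHDTiEC library (10x Genomics 3′ chemistry). The authors deposited raw UMI counts per gene and barcode, made with Cell Ranger against mm10 per the labels and file headers, with 6794880 barcodes listed per library and no filter on cells. Their later filtering (from 500 UMIs) and clustering in Seurat were not used here, and no deposited annotation names cells.

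Members were chosen by the filters and marker thresholds given above, read from the counts with Python 3.11.15, numpy 2.4.6, scipy 1.17.1 and pandas 2.3.3. The members, gene lists and named genes were chosen with earlier results of these data known, and the bands of mitochondrial share, the S100g range and the alternatives without other-cell barcodes or with up to 1 Ptprc UMI after the values were seen. Other gates were at least 5 UMIs of Slc12a1 and more than of Slc12a3 (TAL), 20 Aqp2 UMIs per 10000 (principal) and 5 UMIs of Slc34a1 (proximal tubule). Further gates needed 3 UMIs of Atp6v1g3 (intercalated), 2 of Pecam1 (endothelial) and 2 of Ptprc (immune). All save the immune gate excluded barcodes with Ptprc and were kept below the limits of some, not all, other gates. Counts were summed over members of each library, divided by the class total (4670177 and 4955823 UMIs) and given as CPM with exact Poisson intervals. Ratios have exact Clopper-Pearson intervals and shares exact binomial ones, all at 95% and for counting error only, since cells of 1 mouse are not replicates. A gene was called past 1.5-fold with at least 100 UMIs over both libraries, and list members needed 10.

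Named genes were the floxed genes, genes of the lists, the 10 highest and 10 lowest log2 ratios where no barcode held over 20% of a gene's UMIs (without mitochondrial, ribosomal protein and haemoglobin genes), and the 10 genes with the highest ratio over other tubule gates. TMM factors came from edgeR 4.0.16 (R 4.3.3). No doublet caller was run. The DCT gate set limits on Slc12a1, Aqp2, Atp6v1g3 and Ptprc only, so barcodes with proximal tubule, endothelial or fibroblast genes could pass it. Leaving out the deepest 5% was an alternative. Thinning drew 2000 UMIs per barcode. Free RNA, estimated from barcodes under 100 UMIs and immune genes in members, came to 2.67% and 4.03% of class UMIs. Subtracting this profile was an alternative, with a median log2 ratio of 0.12 over genes with 10 UMIs or more. Gene positions are from GENCODE vM21 (GRCm38; 32158 of 32285 genes matched) and promoters from RefSeq. The scripts were tested on simulated data, and figures were drawn with matplotlib 3.10.9.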

Additional observations from a re-analysis of the deposited data

How the results depend on the processing

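No paired analysis was possible because each genotype is 1 library. The counts past 1.5-fold, 420 higher and 115 lower, moved by over 1.5 times under TMM scaling (238 and 199), with a mean over barcodes (743 higher), with genes of 10 UMIs or more (1585 and 775), and by construction with fewer members inside bands of mitochondrial share (211 lower under 6%, 233 higher at 6 to 12%, 141 higher and 63 lower at 12% or more). The member share moved to 2.12% in Cre- with a mitochondrial limit of 20%, to 2.30% and 2.08% from 500 UMIs, to 3.34% and 2.97% from 5000 UMIs, to 1.99% in PHDTiEC with Slc12a3 at 10 UMIs, and to 6.17% and 5.63% of barcodes without Ptprc.

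Of genes and list medians past 1.5-fold over all members, these turned direction, mostly inside bands, and the cause was not tested. At 12% or more they were Klk1 (-0.73), Hsd11b2 (-0.15), Fos (-0.75), Jun (-0.53), Dusp1 (-0.57), Cxcl1 (0.66), Calb1 (0.46), Kl (0.091), Loxl2 (0.54), Isg15 (-1.97), Slc12a1 (-0.25) and the TAL marker median (-0.29). At 6 to 12% they were Calb1 (0.34), Kl (0.65), Egln3 (-0.74), Vcam1 (-0.97) and Loxl2 (0.14), and under 6% the mitochondrially encoded median (0.082). Fosl1 turned with a mean over barcodes (0.18), Gpx6 with a mitochondrial limit of 20% (0.65), and Slc12a1 (-0.014) and the TAL marker median (-0.070) without barcodes holding endothelial, fibroblast or haemoglobin UMIs. Smaller values also turned inside bands, among them Clu, Slc12a3 and the medians of the DCT marker, calcium, late DCT, injury, HIF, interferon, p53, glycolysis and nuclear respiratory lists, at the values given above. Genes under 10 UMIs in an alternative got no value there. With 192 and 189 members, a gene of few UMIs rests on few cells, and the counting interval is narrower than the spread between mice, which was not measured.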
